A study of Mus musculus with 26 samples.

Results

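Solute carriers are membrane proteins that move small molecules across the cell surface and the membranes of organelles. Mouse genes of this superfamily are named by a family number and a member number, and families tend to share a kind of substrate. In the small intestine, carriers on the brush border of enterocytes take up amino acids, peptides, sugars, ions, metals and bile acids. Carriers on the basolateral side pass them on to the blood, and the mitochondrial carriers of family 25 link the cytosol to mitochondrial metabolism. The genes described here were all those with a symbol of the form Slc, number, a, number that reached at least 5 CPM (the gene's counts scaled to the library total) in 3 or more of 26 libraries. Of 334 such symbols, 315 had at least 1 read, 191 met the rule and 6 (Slc5a1, Slc2a5, Slc2a1, Slc16a3, Slc7a11 and Slc7a2) were left out by name, which left 185 carriers among 55385 genes in the tables. They were sorted by substrate, by family number with exceptions for single genes. The substrate of a member can therefore differ from the name of its class. Slc6a4 (serotonin) and Slc6a8 (creatine) were counted with amino acids and peptides, and Slc26a2 (sulfate) with ions. The larger classes held 37 mitochondrial carriers, 33 carriers of amino acids and peptides, 25 of ions and acid-base equivalents and 25 of metals and haem. The others held 13 of sugars, 12 of lipids, bile acids and choline, 12 of organic ions and vesicular cargo, 10 of monocarboxylates, dicarboxylates and sulfate, 9 of nucleosides and nucleotide sugars and 9 of vitamins.

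The libraries came from cultured intestinal organoids, epithelial structures grown in Matrigel from crypts of C57BL/6 mice. Every culture, vehicle included, received EGF, Noggin, R-spondin and the Wnt activator CHIR-99021, so all groups shared strong niche signals. Vehicle, arachidonic acid (AA, 25 µM) and prostaglandin E2 (PGE2, 50 nM) were given for 1 or 3 days (n = 3 libraries each). For 6 days only AA and vehicle were given (n = 4 each). The treatment protocol names PGE2 and the series' design text a dimethyl analogue of it, so "PGE2" stands here for either. Whether replicates came from different mice or cultures is not stated, and the p-values measure only the spread between these libraries. Depth was 1.01e+07 to 1.46e+07 counts for the earlier days and 1.61e+07 to 1.98e+07 for the last.

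On the labelled cell type, 5 of 6 fibroblast, 4 of 5 immune and 3 of 3 endothelial markers stayed under 1 CPM in every library. Among epithelial markers, the summed level of 8 enterocyte genes was 2103 to 2223 CPM in vehicle, 3559 to 3933 CPM with AA and 3050 to 3354 CPM with PGE2 at day 3, and 2048 to 2837 against 4666 to 5509 CPM with AA at day 6. At day 1 it was 1881 to 1944 CPM in vehicle, 2234 to 2412 CPM with AA and 1954 to 1968 CPM with PGE2. Other epithelial lists moved too. The summed level of 5 stem cell genes was 555 to 591 CPM in vehicle, 246 to 256 CPM with AA and 129 to 143 CPM with PGE2 at day 1, and 1786 to 1923, 555 to 608 and 244 to 273 CPM at day 3. That of 4 fetal-like genes was 268 to 298, 1107 to 1152 and 2089 to 2125 CPM at day 1, and 397 to 488, 1069 to 1279 and 2106 to 2151 CPM at day 3. With PGE2 at day 3, 5 goblet cell genes summed to 2077 to 2097 CPM, from 1037 to 1088 CPM in vehicle. The sum of 5 enteroendocrine genes was 31.2 to 39.9 CPM, from 120 to 132 CPM. With AA on that day the sums were 616 to 748 and 44.7 to 53.5 CPM. At day 1 the goblet sum was 670 to 692 CPM in vehicle, 440 to 475 with AA and 793 to 858 with PGE2. The enteroendocrine sum was then 31.2 to 34.4, 44.1 to 52.3 and 59.6 to 64.8 CPM. Single goblet genes did not all follow their sum. Of the 5, 2 rose and 3 fell with AA at day 1, and 1 rose and 3 fell at day 3. With PGE2, 3 rose and 0 fell at day 1, and 4 rose and 1 fell at day 3. For 5 Paneth cell genes the day 3 sum was 1955 to 2240 CPM in vehicle, 670 to 848 with AA and 655 to 697 with PGE2. The part of such shifts in the carrier results was not tested, and in bulk RNA a change in the number of cells of a type and a change in RNA per cell cannot be told apart.

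The rule itself used levels, not contrasts, but it let in 15 carriers with no library at 5 CPM in 1 or 2 of the 3 arms (vehicle, AA and PGE2). Slc16a11, Slc2a6, Slc36a4, Slc5a12 and Slc7a15 reached 5 CPM in PGE2 libraries alone, Slc25a34 in AA libraries alone and Slc7a3 in vehicle libraries alone. Slc12a4, Slc13a1, Slc17a9, Slc23a3 and Slc47a1 did so in AA and PGE2 libraries but in no vehicle library, and Slc16a12, Slc1a3 and Slc9a5 in vehicle and AA libraries but in none with PGE2. For these 15 a difference between the arms was built into the choice, and their changes are given as a description. Carriers named below beyond the 42 picked by a fixed rule were chosen after their values were seen. At the edge of the rule, the third highest library stood at 5.036 CPM for Slc16a11, 5.042 for Slc7a15 and 5.618 for Slc2a6 just inside, and at 4.804 CPM for Slc25a27, 4.436 for Slc2a8 and 3.967 for Slc46a3 just outside. In all, 140 of the 185 carriers were at 5 CPM or more in all 26 libraries.

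More carriers rose than fell with either treatment at day 3 and with AA at day 6. At day 1 rises and falls were nearly equal in number in the main fit. With AA, 52 rose and 54 fell at day 1, 80 rose and 30 fell at day 3, and 58 rose and 36 fell at day 6, when 183 could be tested. Without AA replicate 4 of day 6, 23 fell on that day, while falls among all genes tested went from 2270 to 1536. With PGE2, 64 rose and 65 fell at day 1 and 90 rose and 43 fell at day 3. The split depended on the processing. For AA at day 1, a fit of the compared groups alone gave 64 rises and 49 falls, and a stricter filter on low counts 60 and 48. With library totals in place of TMM scaling, AA gave 51 and 53 at day 1 and 67 and 38 at day 3. PGE2 then gave 58 and 74 at day 1 and 87 and 44 at day 3. Among the 183 carriers that met the level rule outside the compared libraries, 62 rose and 65 fell with PGE2 at day 1. At day 3 it was 85 and 43 of 180, and with AA at day 6 it was 57 and 34 of 180. The share of carriers called was 57.3%, 59.5% and 51.4% for AA at days 1, 3 and 6, where 49.4%, 48.1% and 36.5% of all genes that met the same level rule were called. Among those genes, 21.7% rose and 27.7% fell with AA at day 1, 25.7% rose and 22.4% fell at day 3, and 18% rose and 18.4% fell at day 6. For PGE2 the share of carriers called was 69.7% and 71.9% at days 1 and 3, beside 64.4% and 66.8% of genes at the same level. Of those genes, 29.3% rose and 35.1% fell with PGE2 at day 1, and 32.1% rose and 34.7% fell at day 3. Much of the transcriptome moved, and these shares are given as a description, not as a test of the family. The counts of each substrate class below stand against the same shares. The median log2 fold change of the carriers was 0.02, 0.10 and 0.11 for AA at days 1, 3 and 6 and -0.01 and 0.17 for PGE2 at days 1 and 3, against -0.05, -0.01 and -0.01 and -0.04 and -0.04 for all genes at the same level.

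**Figure D1:**
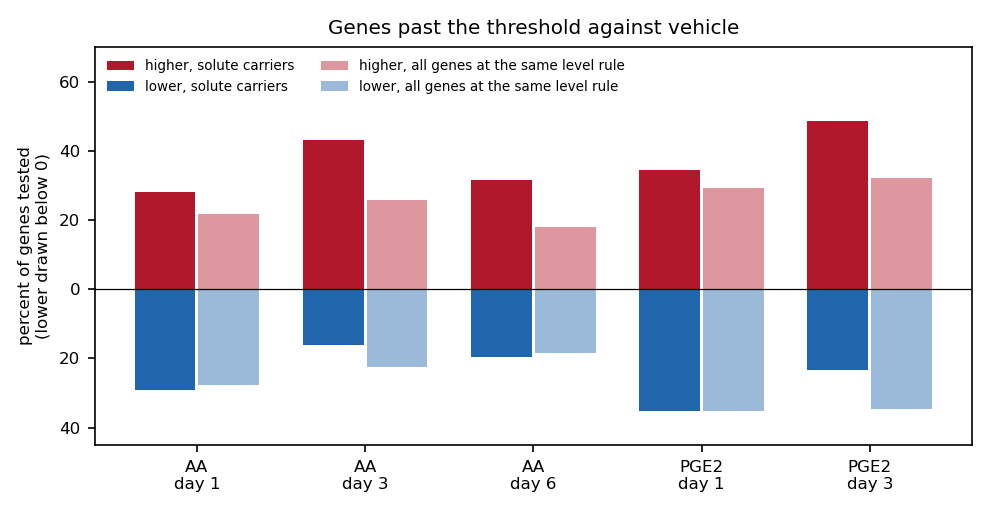
Percent of tested genes past an adjusted p of 0.05 against vehicle of the same day, higher above 0 and lower below 0, for the solute carriers (dark bars) and for all genes at the same level rule (pale bars). The dark bars for rises are tallest at day 3, where 80 carriers rose with AA and 90 with PGE2.

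A set of 21 carriers rose in all 5 comparisons with vehicle: Slc10a5, Slc20a1, Slc22a23, Slc23a2, Slc25a24, Slc25a48, Slc26a2, Slc27a4, Slc37a1, Slc38a2, Slc39a1, Slc39a10, Slc39a4, Slc40a1, Slc44a2, Slc44a4, Slc4a11, Slc6a8, Slc7a9, Slc9a2 and Slc9a4. Another 10 fell in all 5: Slc16a12, Slc1a3, Slc1a5, Slc25a23, Slc27a2, Slc29a1, Slc30a2, Slc6a4, Slc7a3 and Slc7a4. For Slc7a3, and with PGE2 for Slc16a12 and Slc1a3, the choice of carriers bears on the fall. The 21 and 10 carriers were 11.4% and 5.41% of the 185. Among 11024 genes at the same level that could be tested in all 5 comparisons, 7.86% rose and 5.87% fell in all of them. AA and PGE2 were compared with the same vehicle libraries at days 1 and 3, so these counts do not rest on independent controls. At day 6 the calls of Slc37a1, Slc4a11 and Slc25a48 were lost when 1 library was left out. The adjusted p of Slc37a1 became 0.0886 without vehicle replicate 1, 0.0721 without vehicle replicate 2, 0.0794 without AA replicate 2 and 0.0796 without AA replicate 4. That of Slc4a11 became 0.0526 and 0.0585 without vehicle replicates 2 and 3 and 0.0575 and 0.0704 without AA replicates 2 and 4. That of Slc25a48 became 0.11 without vehicle replicate 4. In none of the 5 comparisons were 15 carriers called (8.11%, beside 12% of those genes), among them Slc30a6, a zinc transporter of the Golgi, and Slc38a9, the lysosomal arginine sensor.

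**Figure D2:**
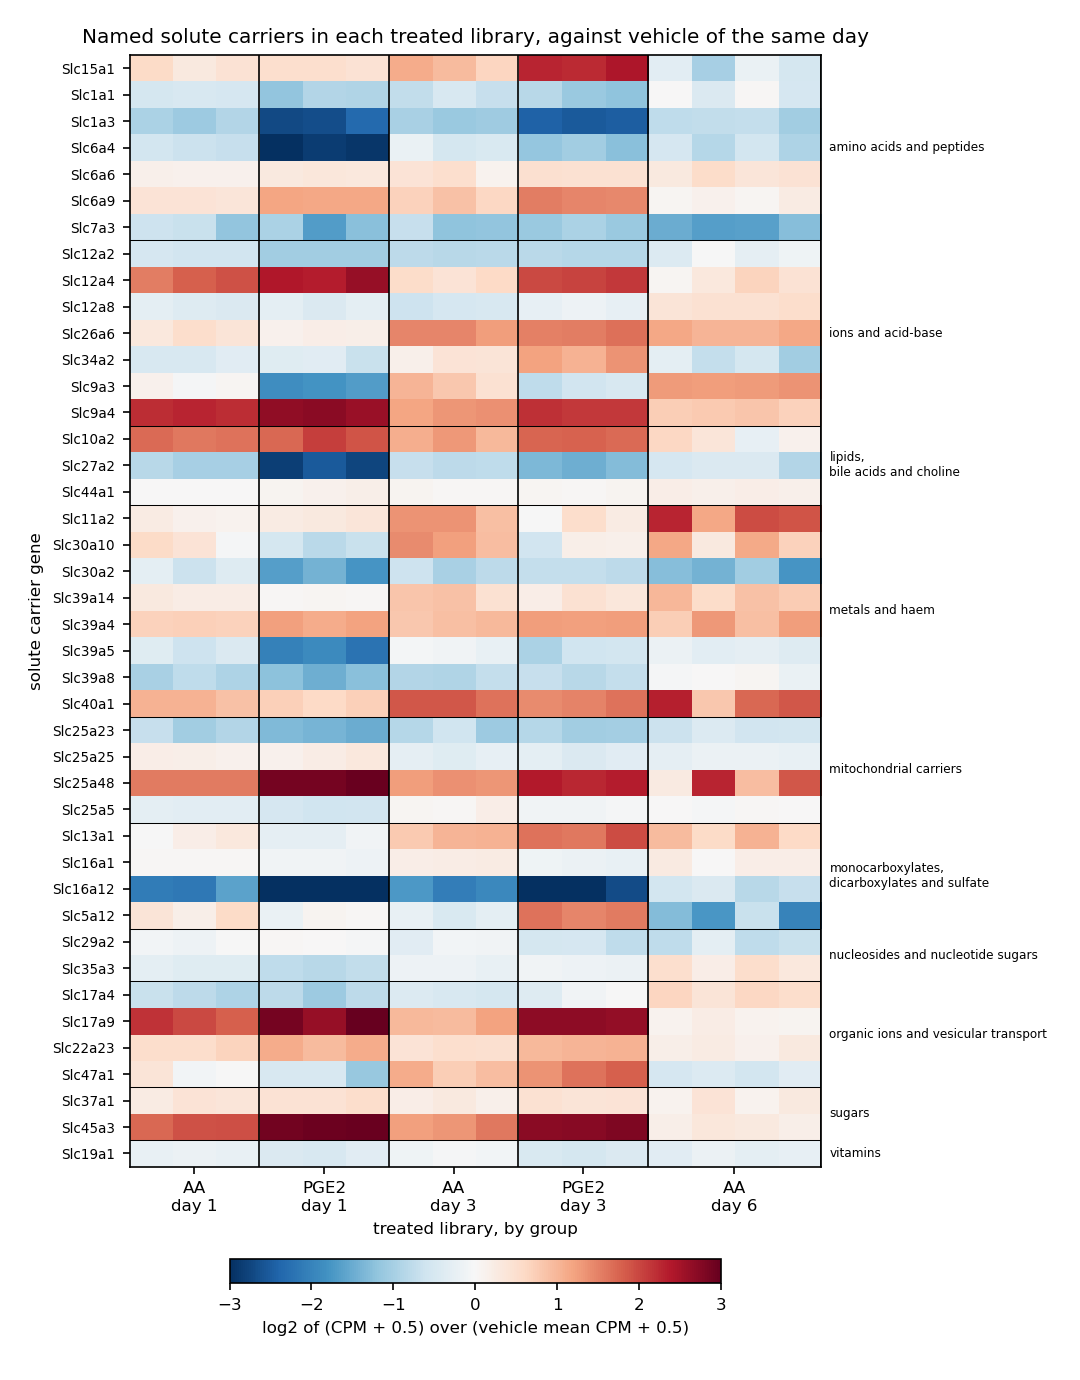
Log2 ratio of each treated library to the vehicle mean of the same day (CPM plus 0.5 in both; colours stop at 3 and -3) for the 42 carriers picked by the naming rule, with genes in rows grouped by substrate and libraries in columns grouped by treatment. Slc16a12 and Slc1a3 are blue and Slc9a4 and Slc40a1 red in every column.

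Promoter sequence is shown for the 5 carriers with either of 2 of the 4 motifs searched: the cAMP response element TGACGTCA, since PGE2 receptors of intestinal epithelium raise cAMP, and the palindromic site of HNF1, a transcription factor of enterocytes. Both strands of the 250 bases before each gene start were searched in RefSeq (GRCm38.p6), where 135 of the 185 carriers had an entry. The cAMP element was found in 1.55% of all 32851 promoters and in 3 carriers, and the HNF1 site in 0.0609% of promoters and in 2 carriers. Of the other motifs, not shown, the AP-1 site TGANTCA was in 6.75% of promoters and in 9 of the 135 carriers, and the TEAD site ACATTCC in 3.25% and in 3. Sequences run 5′ to 3′ toward the gene, with the match in capitals, and a match describes the letters only. For Slc25a25 it lies before 1 of several listed starts.
Slc25a25 (cAMP element, chr2:32424067-32424316, minus strand): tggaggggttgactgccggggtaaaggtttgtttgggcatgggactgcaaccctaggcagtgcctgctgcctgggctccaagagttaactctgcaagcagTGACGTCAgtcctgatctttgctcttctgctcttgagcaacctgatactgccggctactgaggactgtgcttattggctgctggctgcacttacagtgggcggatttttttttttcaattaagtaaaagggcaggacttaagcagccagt
Slc25a36 (cAMP element, chr9:97111042-97111291, minus strand): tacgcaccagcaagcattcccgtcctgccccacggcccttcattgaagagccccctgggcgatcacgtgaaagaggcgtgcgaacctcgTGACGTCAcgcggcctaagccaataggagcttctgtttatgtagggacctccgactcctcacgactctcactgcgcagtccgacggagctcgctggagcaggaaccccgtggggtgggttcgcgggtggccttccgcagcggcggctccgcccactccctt
Slc38a6 (cAMP element, chr12:73286598-73286847, plus strand): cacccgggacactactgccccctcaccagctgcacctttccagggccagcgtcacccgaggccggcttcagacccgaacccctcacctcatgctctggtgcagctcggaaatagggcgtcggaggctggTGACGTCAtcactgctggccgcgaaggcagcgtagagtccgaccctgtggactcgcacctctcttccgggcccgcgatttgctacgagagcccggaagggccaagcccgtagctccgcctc
Slc10a2 (HNF1 site, chr8:5105288-5105537, minus strand): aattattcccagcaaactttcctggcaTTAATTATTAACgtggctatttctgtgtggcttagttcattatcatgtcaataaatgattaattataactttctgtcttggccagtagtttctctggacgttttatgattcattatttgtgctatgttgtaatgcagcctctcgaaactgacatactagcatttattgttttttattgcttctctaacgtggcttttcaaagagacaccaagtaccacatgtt
Slc26a3 (HNF1 site, chr12:31437969-31438218, plus strand): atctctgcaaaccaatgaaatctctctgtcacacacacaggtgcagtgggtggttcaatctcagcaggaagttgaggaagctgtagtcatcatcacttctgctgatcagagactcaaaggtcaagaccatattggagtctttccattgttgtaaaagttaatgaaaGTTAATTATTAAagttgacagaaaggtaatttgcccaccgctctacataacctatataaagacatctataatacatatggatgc

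The 5 genes did not move as 1 group. Slc25a25, a mitochondrial ATP-Mg/phosphate carrier with the cAMP element, stood at 39.3, 40.8 and 40.3 CPM in vehicle and 44.2, 47.0 and 49.8 CPM with PGE2 at day 1. The day 3 values were 40.7, 45 and 40.1 CPM in vehicle and 33.9, 31.1 and 33.1 CPM with PGE2. It was thus higher than vehicle at day 1 and lower at day 3 in every library, by 0.23 ± 0.06 (SE, adjusted p = 0.00209) and -0.36 ± 0.06 (1.4e-05) on the log2 scale. Of the 64 carriers that rose with PGE2 at day 1 it was the 1 that fell at day 3 (1.56%, beside 3.55% of all genes at the same level that rose). Slc25a36, a mitochondrial pyrimidine nucleotide carrier, went the other way, -0.28 ± 0.07 at day 1 and 0.19 ± 0.07 at day 3; leaving out vehicle replicate 1 (0.12, adjusted p = 0.146), vehicle replicate 3 (0.11, 0.159) or PGE2 replicate 2 (0.14, 0.0916) ended the second call. Slc38a6, an amino acid transporter of the SNAT family, rose with PGE2 on both days (0.56 ± 0.13 and 0.64 ± 0.12). Slc10a2 and Slc26a3, which carry the HNF1 site, are described with their substrates.

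Of 25 carriers of metals and haem, 5 rose and 4 fell with AA at day 1, 10 rose and 3 fell at day 3 and 12 rose and 5 fell at day 6. PGE2 gave 7 rises and 7 falls at day 1 and 11 rises and 8 falls at day 3. The share called was 36.0%, 52.0% and 68.0% with AA, beside 49.4%, 48.1% and 36.5% of all genes at the same level, and 56.0% and 76% with PGE2, beside 64.4% and 66.8%. At day 1 it was thus under that of all genes with either treatment. Their summed level went from 1252 ± 15.8 to 1640 ± 93.4 CPM with AA and 1440 ± 64.1 CPM with PGE2 at day 3 (mean ± SD, n = 3), and from 1294 ± 51.4 to 1799 ± 189 CPM with AA at day 6 (n = 4).

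Transporters at both ends of iron absorption were higher after AA at days 3 and 6. Slc11a2 (ENSMUSG00000023030.16), the divalent metal transporter that brings ferrous iron across the brush border, stood at 107, 113 and 95.7 CPM in vehicle and 270, 268 and 197 CPM with AA at day 3. At day 6 it stood at 87.2, 97.8, 116 and 82.8 CPM in vehicle and 471, 214, 376 and 359 CPM with AA. Every AA library lay above every vehicle library on both days, and the log2 fold changes were 1.22 ± 0.14 (SE, adjusted p = 6.7e-06) and 1.89 ± 0.20 (5.3e-05). At day 1 the AA libraries, 69.9, 64.3 and 63.7 CPM beside 58.1, 59.6 and 59.3 CPM, gave 0.16 ± 0.15, which was not called in the fit of all 18 libraries (adjusted p = 0.427) but was in a fit of those 6 alone (0.19, 0.00322). The response to AA was larger at day 3 than at day 1 by 1.06 ± 0.20 (0.00263).

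With PGE2 at day 3, Slc11a2 stood at 104, 153 and 124 CPM, overlapping vehicle, with a log2 fold change of 0.27 ± 0.14 (adjusted p = 0.111); without PGE2 replicate 1 it was called (0.39, 0.0165). PGE2 at day 1 gave 0.31 ± 0.15 (0.105), called in the fit of the compared groups alone (0.33, 5.26e-06). AA exceeded PGE2 at day 3 by 0.95 ± 0.13 (7.4e-05). Slc40a1 (ENSMUSG00000025993.10), ferroportin, the basolateral iron exporter, stood at 17.3, 14.2 and 12.8 CPM in vehicle, 55.4, 54.7 and 47.1 CPM with AA and 40.4, 42.0 and 46.7 CPM with PGE2 at day 3. Unlike Slc11a2 it thus lay above vehicle in every library of both treatments, with log2 fold changes of 1.81 ± 0.09 for AA and 1.53 ± 0.09 for PGE2, and it was already higher at day 1 (1.04 ± 0.12 and 0.71 ± 0.13).

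At day 6 Slc40a1 was the more scattered of the pair: 12, 10.1, 13.6 and 6.21 CPM in vehicle and 54.4, 18.8, 35.6 and 39.3 CPM with AA (1.81 ± 0.33, adjusted p = 0.00369). AA replicate 2 was the lowest of the 4 AA libraries for Slc40a1, Slc11a2, Slc39a14 and Slc30a10 alike. Slc39a14, a zinc and iron importer, rose with AA from 171 ± 6.41 to 284 ± 42.2 CPM at day 3 and from 159 ± 15.1 to 278 ± 35.1 CPM at day 6, by 0.73 ± 0.09 and 0.81 ± 0.09, and with PGE2 at day 3 by 0.34 ± 0.09. Slc30a10, the manganese exporter, was low at day 1 in every group (at most 4.63 CPM) and rose with AA at day 3, from 20.9, 22.8 and 18.6 to 56.5, 49.1 and 40.0 CPM (1.22 ± 0.16, adjusted p = 1.5e-05). PGE2 left it at 13.8, 23.4 and 23.2 CPM on that day (-0.03 ± 0.18, 0.888), and AA exceeded PGE2 by 1.26 ± 0.16 (1.2e-05). At day 6 it stood at 34.2 ± 7.46 CPM in vehicle and 62.8 ± 16.9 CPM with AA (0.87 ± 0.19, 0.00589), a call lost without vehicle replicate 4 (0.76, 0.082) and without a filter on low counts (0.88, 0.0809).

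**Figure D3:**
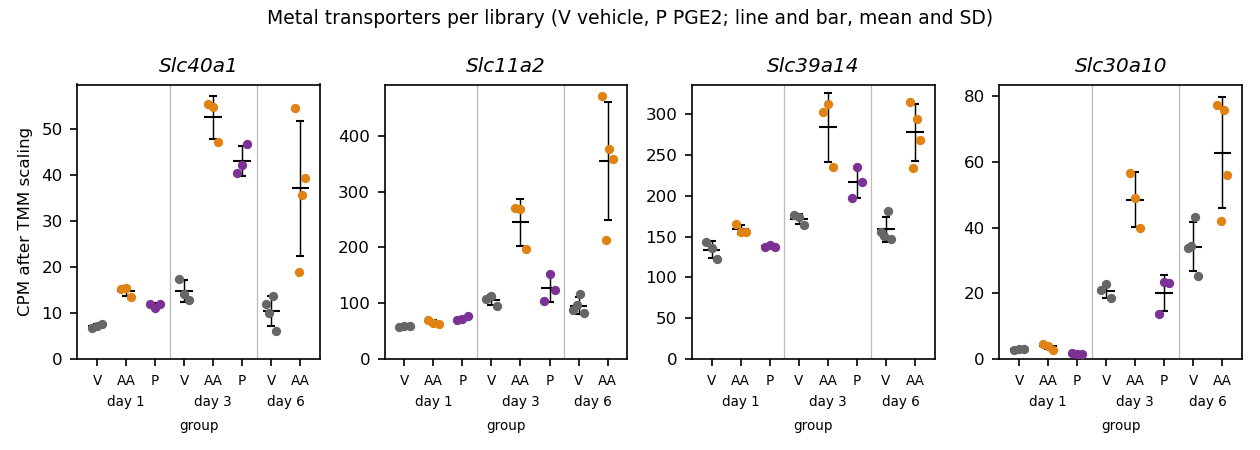
CPM after TMM scaling of 4 metal transporters in each of the 26 libraries (points), with the mean and SD of each group; V is vehicle and P is PGE2, and days 1 and 3 were scaled apart from day 6. AA libraries stand above vehicle at days 3 and 6 in all 4 panels, and PGE2 libraries overlap vehicle for Slc11a2 and Slc30a10 at day 3.

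Zinc transporters split by direction. Slc39a4, the brush border zinc importer whose loss causes acrodermatitis enteropathica in people, rose in all 5 comparisons, from 53.9 ± 3.43 to 88.0 ± 0.693 CPM with AA and 123 ± 5.82 CPM with PGE2 at day 1 (0.71 ± 0.05 and 1.19 ± 0.05). The day 6 rise was from 25.4 ± 2.54 to 53.8 ± 9.88 CPM with AA (1.09 ± 0.12). Slc39a10, another zinc importer, rose in all 5 as well, by 0.46 to 1.07 on the log2 scale. Slc39a5, a zinc importer of the basolateral side, fell with PGE2 from 51.1 ± 3.37 to 12 ± 1.32 CPM at day 1 (-2.10 ± 0.10) and from 56.4 ± 2.83 to 34.8 ± 5.19 CPM at day 3 (-0.69 ± 0.08). Slc39a8, which carries zinc and manganese, fell at days 1 and 3 with both treatments, by 0.75 to 1.33. At day 6 it differed from vehicle by -0.03 ± 0.07 with AA (adjusted p = 0.743). Its response to AA was higher at day 6 than at day 3 by 0.78 ± 0.10 (1.0e-06). Slc30a2, which loads zinc into secretory vesicles, fell in all 5, from 33.8 ± 3.5 to 13 ± 2.77 CPM with AA at day 6 (-1.38 ± 0.13). The summed level of 5 markers of Paneth cells, which store zinc in their granules, moved from between 3855 and 4895 to between 1764 and 2228 CPM in the same libraries; its part in the fall of Slc30a2 was not tested.

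Among ion and acid-base carriers, several exchangers rose with both treatments, and Slc9a3 rose with AA and fell with PGE2. Of 25, 9 rose and 7 fell with AA at day 1, 12 rose and 4 fell at day 3, and of 24 tested at day 6, 12 rose and 2 fell. PGE2 gave 9 rises and 9 falls at day 1 and 13 rises and 5 falls at day 3. Slc9a4 (ENSMUSG00000026065.8), a basolateral sodium-proton exchanger, stood at 9.21, 9.15 and 9.77 CPM in vehicle, 45.1, 47.3 and 45.7 CPM with AA and 62.2, 64.1 and 58.8 CPM with PGE2 at day 1. The 3 groups did not overlap, and the log2 fold changes were 2.29 ± 0.08 for AA and 2.72 ± 0.07 for PGE2, with PGE2 above AA (AA minus PGE2 -0.42 ± 0.06, adjusted p = 1.0e-06). The same order held at day 3, with 9.27 ± 0.980, 23.5 ± 1.54 and 42.6 ± 0.996 CPM. At day 6 the gene stood at 1.58 ± 0.318 CPM in vehicle and 3.04 ± 0.143 CPM with AA (0.94 ± 0.17).

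Several other ion and acid-base carriers showed the order vehicle, AA, PGE2. Slc9a2, an apical sodium-proton exchanger, went from 24.9 ± 1.85 to 75.2 ± 3.89 and 94.8 ± 1.55 CPM at day 1 (AA minus PGE2 -0.33 ± 0.05, adjusted p = 1.1e-05). Slc26a2, a sulfate transporter, went from 156 ± 5.87 to 282 ± 11.4 and 710 ± 8.74 CPM at day 3 (-1.33 ± 0.04, 3.4e-20), and Slc4a11, a proton and borate carrier of the bicarbonate transporter family, from 14.6 ± 0.160 to 25.2 ± 2.84 and 57.2 ± 2.45 CPM (-1.19 ± 0.07, 3.0e-14). Slc12a4, a potassium-chloride cotransporter, went from 2.05 ± 0.658 to 8.08 ± 1.09 and 13.6 ± 1.37 CPM at day 1 (-0.75 ± 0.14, 6.8e-05). Since Slc12a4 reached 5 CPM in no vehicle library, the choice of carriers bears on its distance from vehicle. Its smaller rise with AA at day 3 (0.65 ± 0.23, 0.0266) was not called without vehicle replicate 1 (0.60, 0.0829), vehicle replicate 2 (0.46, 0.145), AA replicate 1 (0.64, 0.0617) or AA replicate 3 (0.61, 0.0677). Slc26a6, an anion exchanger that secretes bicarbonate and oxalate, differed little between the treatments: at day 3 it stood at 17.4 ± 1.88 CPM in vehicle, 46.4 ± 3.81 with AA and 52.2 ± 2.96 with PGE2, 1.42 ± 0.08 and 1.59 ± 0.08 above vehicle. It rose with AA at day 6 by 1.11 ± 0.07. Its AA minus PGE2 difference at day 3 (-0.17 ± 0.07, adjusted p = 0.0483) was lost without AA replicate 3 (-0.07, 0.489) or PGE2 replicate 1 (-0.20, 0.0501), 2 (-0.16, 0.118) or 3 (-0.12, 0.246).

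Slc9a3 (ENSMUSG00000036123.8), the main sodium-proton exchanger of the brush border, rose with AA and fell with PGE2. At day 3 it stood at 21.5, 24.6 and 22.9 CPM in vehicle, 47.4, 40.5 and 32.0 CPM with AA and 13.4, 15.2 and 16.4 CPM with PGE2, so that the groups did not overlap. The log2 fold changes were 0.80 ± 0.10 (adjusted p = 3.8e-07) for AA and -0.61 ± 0.11 (6.2e-05) for PGE2. At day 1 PGE2 had taken it to 5.18, 5.42 and 5.94 CPM from 19.9, 20.9 and 19.5 CPM (-1.87 ± 0.14), while AA left it at 22.0, 19.5 and 21.1 CPM (0.05 ± 0.11, 0.737). By day 6 AA libraries stood at 42.8, 41.8, 42.9 and 45.2 CPM against 17.1, 14, 22.0 and 16.3 CPM in vehicle (1.32 ± 0.11, 7.2e-06). AA minus PGE2 came to 1.92 ± 0.14 at day 1 and 1.41 ± 0.11 at day 3.

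Slc26a3, the chloride-bicarbonate exchanger that pairs with sodium-proton exchange in salt absorption and whose promoter was shown for its HNF1 site, fell and then rose with PGE2. It stood at 73.0, 70.4 and 68.8 CPM in vehicle and 32.2, 34.6 and 31.8 CPM with PGE2 at day 1. At day 3 the values were 54.6, 58.9 and 51.3 CPM in vehicle and 75, 73.2 and 78.6 CPM with PGE2. Every PGE2 library was below vehicle at day 1 and above it at day 3, with log2 fold changes of -1.11 ± 0.06 and 0.46 ± 0.06 and a difference of 1.57 ± 0.09 (adjusted p = 2.1e-14). AA turned it in the same directions by less, -0.16 ± 0.06 (adjusted p = 0.0276) and 0.34 ± 0.06, a difference of 0.50 ± 0.08 (7.3e-05). The day 1 fall with AA was lost without vehicle replicate 1 or 2 or AA replicate 1 or 2 (adjusted p of 0.051 to 0.103) and with DESeq2 (0.0774). On the secretory side, Slc12a2, the basolateral sodium-potassium-chloride cotransporter that feeds chloride secretion, fell from 1308, 1314 and 1242 CPM to 903, 861 and 867 CPM with AA and 629, 629 and 620 CPM with PGE2 at day 1. The groups did not overlap, and it fell by 0.55 ± 0.04 with AA and by 1.04 ± 0.05 with PGE2 on the log2 scale. At day 3 the treatments no longer differed past the threshold (783 ± 13.4 with AA and 769 ± 18.5 CPM with PGE2, from 1379 ± 44.5 CPM; AA minus PGE2 0.03 ± 0.04, 0.692). At day 6 AA gave -0.19 ± 0.09 (0.114), which was called without AA replicate 2 (-0.26, 0.0421).

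**Figure D4:**
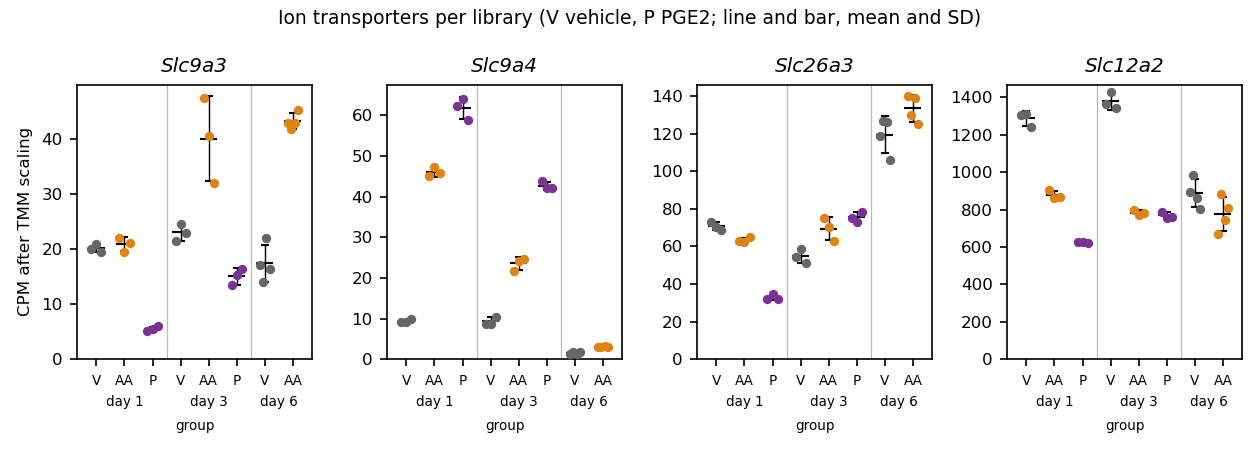
CPM after TMM scaling of 4 ion transporters in each library (points), with the mean and SD of each group; V is vehicle and P is PGE2. Slc9a3 is higher with AA and lower with PGE2 at day 3, Slc9a4 rises in the order vehicle, AA, PGE2 at days 1 and 3, Slc26a3 is below vehicle with PGE2 at day 1 and above it at day 3, and Slc12a2 is below vehicle with both treatments at those days.

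Carriers of amino acids and peptides moved in both directions with AA, in about equal number at days 1 and 3. Of 33, 10 rose and 11 fell at day 1 and 11 rose and 10 fell at day 3. At day 6 falls outnumbered rises, with 6 rises and 10 falls. PGE2 gave 12 rises and 14 falls at day 1 and 15 rises and 11 falls at day 3. Slc15a1 (ENSMUSG00000025557.10), the proton-coupled importer of dipeptides and tripeptides, stood at 14.6, 14.2 and 14.9 CPM in vehicle, 32.1, 28.4 and 23.0 CPM with AA and 72.7, 71.0 and 80.3 CPM with PGE2 at day 3. The 3 groups were apart, with log2 fold changes of 0.93 ± 0.10 and 2.36 ± 0.09 and AA below PGE2 by 1.42 ± 0.08 (adjusted p = 1.3e-13). At day 1 the rises were 0.45 ± 0.10 and 0.49 ± 0.11, and the response to PGE2 grew by 1.87 ± 0.14 (8.9e-11) to day 3. At day 6 the gene stood at 7.54, 6.19, 7.93 and 8.51 CPM in vehicle and 5.93, 3.51, 6.52 and 5.08 CPM with AA, overlapping. The fall (-0.52 ± 0.17, 0.036) was lost without vehicle replicate 1 (0.0738), 3 (0.077) or 4 (0.0583) or AA replicate 2 (0.0696) or 4 (0.0855).

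Slc3a1 and Slc7a9 are the heavy and light chains of the brush border system for cystine and dibasic amino acids, and both were higher at day 3. Slc3a1 stood at 37.5, 35.8 and 36.2 CPM in vehicle, 70.1, 72.7 and 67.5 CPM with AA and 73.0, 79.8 and 81.3 CPM with PGE2, changes of 0.94 ± 0.06 and 1.10 ± 0.06. Slc7a9 stood at 16.5, 17.7 and 16.7 CPM, 38.7, 38.3 and 36.0 CPM, and 46.9, 45.7 and 48.8 CPM in the same order, changes of 1.15 ± 0.08 and 1.48 ± 0.07. In each case all treated libraries lay above all vehicle libraries. At day 6 AA gave 0.40 ± 0.08 for Slc3a1 and 0.49 ± 0.09 for Slc7a9. Slc7a7, the light chain of the basolateral exporter of dibasic amino acids, rose at day 3 from 53.3 ± 0.390 to 77.2 ± 2.22 and 106 ± 2.00 CPM (0.53 ± 0.05 and 0.99 ± 0.05). No source used here names the counting strand. In the GENCODE annotation 26.5% of the Slc3a1 exon length overlaps Prepl on the other strand, as 21.3% of Slc9a4, 31.9% of Slc1a1, 30.2% of Slc6a9 and 26.2% of Slc13a2 overlap other genes, so reads of such partners cannot be told apart.

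Slc6a19, the sodium-coupled importer of neutral amino acids on the brush border, fell and then rose with PGE2, as Slc26a3 did. It stood at 67.0, 69.3 and 60.2 CPM in vehicle and 37.0, 39.9 and 41.8 CPM with PGE2 at day 1 (-0.73 ± 0.09). At day 3 it stood at 49.6, 55.3 and 52.7 CPM in vehicle and 80.3, 80.9 and 86.4 CPM with PGE2 (0.66 ± 0.08). PGE2 libraries were thus below vehicle at day 1 and above at day 3, a difference of 1.38 ± 0.12 (adjusted p = 7.2e-09). AA raised it at day 3 to 86.2, 75.6 and 63.0 CPM (0.52 ± 0.08). Slc43a2, a basolateral exporter of large neutral amino acids, rose with PGE2 at day 3 from 38.7 ± 1.52 to 77.0 ± 5.46 CPM (1.00 ± 0.08).

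Slc1a5, Slc7a5, Slc1a1, Slc1a3 and Slc6a4 were lower. Slc1a5, a glutamine exchanger, fell in all 5 comparisons by 0.25 to 0.59, for example from 194 ± 3.89 to 154 ± 1.36 CPM with AA and 129 ± 7.2 CPM with PGE2 at day 3. Slc7a5, the exchanger of large neutral amino acids, fell with PGE2 by 0.26 ± 0.05 and 0.45 ± 0.05 at days 1 and 3. Slc1a1, a glutamate importer of the brush border, fell with PGE2 on both days (-1.04 ± 0.11 and -1.10 ± 0.11). Slc1a3, another glutamate importer, fell in all 5, from 13.5, 11.6 and 14.6 CPM to 6.48, 5.88 and 6.11 CPM with AA and 2.05, 1.88 and 1.96 CPM with PGE2 at day 3 (-1.10 ± 0.12 and -2.75 ± 0.15). Slc1a3 reached 5 CPM in no PGE2 library, so the choice of carriers bears on its fall with PGE2. The day 6 fall was from 41.3 ± 3.26 to 23.4 ± 2.38 CPM with AA. Slc6a4, the serotonin transporter, stood at 17.6, 16.6 and 15.8 CPM in vehicle, 11.3, 10.5 and 10.2 CPM with AA and 1.52, 1.88 and 1.76 CPM with PGE2 at day 1. The 3 groups were apart (-0.64 ± 0.10 and -3.29 ± 0.14). The fall with PGE2 was smaller at day 3, at 6.26 ± 0.517 against 14.5 ± 0.628 CPM (-1.21 ± 0.11, a difference of 2.08 ± 0.20, adjusted p = 1.7e-09). Slc6a9, a glycine transporter, rose with PGE2 at both days (1.18 ± 0.07 and 1.51 ± 0.07), and Slc6a6, the taurine transporter, by 0.32 ± 0.06 and 0.46 ± 0.06. Slc38a2, a sodium-coupled neutral amino acid importer, rose from 308 ± 18.4 to 403 ± 11.6 CPM with AA at day 6 (0.39 ± 0.06).

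The deepest fall among the 185 carriers in each of the 4 comparisons with vehicle at days 1 and 3 was in Slc16a12 (ENSMUSG00000009378.4), a transporter of creatine in the monocarboxylate family. It stood at 14.2, 13.9 and 17.7 CPM in vehicle, 3.18, 3.09 and 4.68 CPM with AA and 0.610, 0.730 and 0.335 CPM with PGE2 at day 1. At day 3 the values were 18.3, 18.1 and 20.0 CPM in vehicle, 5.38, 4.09 and 4.56 CPM with AA and 1.89, 1.81 and 2.51 CPM with PGE2. No group overlapped another on either day, and the PGE2 libraries of day 1 rest on few reads. Slc16a12 reached 5 CPM in no PGE2 library, so the choice of carriers bears on its fall with PGE2. Log2 fold changes at day 1 were -2.06 ± 0.15 for AA (4.17-fold lower, adjusted p = 7.0e-13) and -4.77 ± 0.22 for PGE2 (27.3-fold lower, 1.1e-17). At day 3 they were -1.99 ± 0.14 and -3.16 ± 0.16. AA lay above PGE2 by 2.71 ± 0.30 and 1.18 ± 0.20. At day 6 the gap to AA was narrower, with 14.4, 15.8, 14.3 and 14.5 CPM in vehicle and 9.96, 10.8, 8.03 and 9.0 CPM with AA (-0.64 ± 0.10, 0.000564). The response differed from that of day 3 by 1.33 ± 0.18 (1.8e-06).

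Slc6a8, the sodium-coupled creatine importer, moved the other way in the same libraries. At day 3 it stood at 49.3, 48.9 and 47.8 CPM in vehicle, 105, 115 and 108 CPM with AA and 178, 173 and 176 CPM with PGE2. The groups were apart in the order vehicle, AA, PGE2 (1.16 ± 0.05 and 1.85 ± 0.05; AA minus PGE2 -0.69 ± 0.05, adjusted p = 1.1e-12). AA at day 6 gave a smaller rise, from 49.3 ± 4.36 to 69.1 ± 4.6 CPM (0.49 ± 0.07).

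The monocarboxylate, dicarboxylate and sulfate carriers as a class changed less uniformly. Over all 10, 1 rose and 3 fell with AA at day 1, 5 rose and 1 fell at day 3 and 1 rose and 3 fell at day 6. PGE2 gave 2 rises and 4 falls at day 1 and 5 rises and 3 falls at day 3. Slc16a1, the lactate and butyrate transporter, was the most counted of the class and moved little: from 180 ± 11.3 to 209 ± 2.15 CPM with AA (0.22 ± 0.05) and 159 ± 4.86 CPM with PGE2 (-0.18 ± 0.05) at day 3. Slc13a1, a sodium-sulfate cotransporter, stood at 3.10, 3.19 and 3.28 CPM in vehicle, 5.82, 6.98 and 7.11 CPM with AA and 11, 10.6 and 13.8 CPM with PGE2 at day 3 (1.05 ± 0.16 and 1.89 ± 0.15). No vehicle library reached 5 CPM for Slc13a1, so the choice of carriers bears on these rises. Slc13a2, the citrate and succinate importer, was 6.45 ± 0.187 CPM in vehicle and 24.5 ± 1.53 CPM with PGE2 on that day (1.92 ± 0.11). Slc5a12, a low-affinity sodium-lactate cotransporter, met the level rule through PGE2 libraries alone: it stood at 2.09, 2.83 and 2.16 CPM in vehicle and 8.38, 7.37 and 7.93 CPM with PGE2 at day 3 (1.74 ± 0.18). At day 6 the values were 1.71, 1.64, 1.78 and 1.73 CPM in vehicle and 0.402, 0.155, 0.899 and 0.0523 CPM with AA (-2.19 ± 0.42, adjusted p = 0.00245; -3.02, 0.00036 without AA replicate 3).

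Among 12 carriers of lipids, bile acids and choline, AA gave 5 rises and 2 falls at day 1, 5 rises and 3 falls at day 3 and 4 rises and 2 falls at day 6. PGE2 gave 6 rises and 2 falls at day 1 and 7 rises and 2 falls at day 3. Slc10a2, the apical sodium-bile acid cotransporter of the ileum, with an HNF1 site in the promoter shown, stood at 7.29, 7.84 and 7.27 CPM in vehicle, 25.4, 23.4 and 24.2 CPM with AA and 25.8, 33.1 and 28.9 CPM with PGE2 at day 1. All treated libraries lay above vehicle (1.70 ± 0.10 and 1.96 ± 0.10). At day 3 the rises were 1.17 ± 0.12 and 1.81 ± 0.11. At day 6 AA and vehicle overlapped, with 1.66, 2.45, 1.72 and 1.41 CPM in vehicle and 3.07, 2.48, 1.46 and 2.04 CPM with AA (0.32 ± 0.24, adjusted p = 0.342). Slc51a, a subunit of the basolateral bile acid exporter whose symbol is outside the pattern of the rule, was 3.36 ± 0.391 CPM in vehicle, 13.3 ± 1.30 CPM with AA and 15.8 ± 0.829 CPM with PGE2 at day 3.

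The fatty acid transport proteins moved apart. Slc27a2, a very long chain acyl-CoA synthetase of peroxisomes and endoplasmic reticulum, stood at 36.5, 34.8 and 36.3 CPM in vehicle, 20.0, 17.8 and 17.8 CPM with AA and 4.65, 5.84 and 4.93 CPM with PGE2 at day 1. The groups were apart (-0.95 ± 0.07 and -2.82 ± 0.09). The gap between treatments was smaller at day 3 (23.7 ± 0.936 with AA and 15.1 ± 0.900 CPM with PGE2, from 39.9 ± 2.35 CPM). Slc27a4, the main fatty acid transport protein of enterocytes, rose in all 5 comparisons, from 45.5 ± 0.815 to 84.0 ± 2.93 CPM with AA and 86.7 ± 2.12 CPM with PGE2 at day 3 (0.88 ± 0.05 and 0.93 ± 0.05; AA minus PGE2 -0.05 ± 0.05, adjusted p = 0.491). Slc44a4 and Slc44a2, choline transporter-like proteins, also rose in all 5, by 0.67 to 1.32 and by 0.48 to 1.60. Slc44a1, the choline transporter most counted in the class, stood at 178 ± 6.48 CPM in vehicle, 185 ± 2.95 CPM with AA and 185 ± 3.45 CPM with PGE2 at day 3 and was not called (0.05 ± 0.04 and 0.06 ± 0.04).

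Of 37 mitochondrial carriers, AA gave 7 rises and 14 falls at day 1, 15 rises and 4 falls at day 3 and 10 rises and 5 falls at day 6. PGE2 gave 10 rises and 16 falls at day 1 and 14 rises and 7 falls at day 3. At day 1 falls outnumbered rises, as they did among all genes at the same level. The share called at days 1 and 3 was 56.8% and 51.4% with AA, beside 49.4% and 48.1% of those genes, and 70.3% and 56.8% with PGE2, beside 64.4% and 66.8%. The difference of responses, day 3 minus day 1, was called for 15 upward and 1 downward with AA and for 15 upward and 2 downward with PGE2. These were 43.2% and 45.9% of the class, beside 30.8% and 47.6% of all 185 carriers. Of genes at the same level 22.1% and 29.8% were called. Slc25a5, an ADP/ATP carrier and the most counted of the class, stood at 887, 902 and 1035 CPM in vehicle, 772, 761 and 757 CPM with AA and 662, 624 and 631 CPM with PGE2 at day 1 (-0.30 ± 0.06 and -0.56 ± 0.06). At day 3 the groups overlapped, with 787, 706 and 785, 795, 782 and 867, and 708, 703 and 744 CPM. The change from day 1 was called for AA (0.40 ± 0.08, adjusted p = 0.00046) and PGE2 (0.48 ± 0.08, 2.9e-05). Slc25a5 has processed copies in the genome, so its counts are uncertain where reads match more than 1 place.

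Slc25a15, the mitochondrial ornithine carrier, stood at 137, 134 and 140 CPM in vehicle, 112, 109 and 108 CPM with AA and 75.4, 72.0 and 74.3 CPM with PGE2 at day 1. At day 3 it was 145, 133 and 147 CPM in vehicle, 170, 173 and 156 CPM with AA and 111, 115 and 112 CPM with PGE2. AA thus went from below to above vehicle (-0.32 ± 0.05, then 0.23 ± 0.05) while PGE2 stayed below (-0.89 ± 0.05, then -0.33 ± 0.05). Slc25a1, the citrate carrier, fell at day 1 with AA and PGE2 (-0.40 ± 0.05 and -0.45 ± 0.05) and was 0.07 ± 0.05 from vehicle with AA at day 3 (adjusted p = 0.287). Slc25a20, the carnitine-acylcarnitine carrier needed for fatty acid oxidation, was the 1 carrier that rose with AA and fell with PGE2 at day 1 (0.36 ± 0.08 and -0.36 ± 0.09), at 27.1 ± 2.11 and 16.4 ± 0.804 CPM beside 21.2 ± 2.44 CPM. This 1 carrier was 0.541% of the 185, beside 0.272% of genes at the same level. At day 3 Slc25a20 rose with both (0.69 ± 0.08 and 0.39 ± 0.09).

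Some mitochondrial carriers kept 1 direction. Slc25a48 (ENSMUSG00000021509.5), a mitochondrial choline carrier, stood at 28.1, 27.0 and 28.3 CPM in vehicle, 82.7, 82.6 and 83.2 CPM with AA and 205, 206 and 222 CPM with PGE2 at day 1. Replicates lay close together and the groups far apart (1.57 ± 0.06 and 2.92 ± 0.05). At day 3 the means were 22.6 ± 1.21, 57.1 ± 2.06 and 116 ± 5.49 CPM. At day 6 the AA libraries were scattered, with 2.62, 3.53, 2.00 and 2.82 CPM in vehicle and 3.42, 15.3, 5.67 and 11.3 CPM with AA (1.70 ± 0.41; without vehicle replicate 4, 1.71, adjusted p = 0.11). Slc25a24, an ATP-Mg/phosphate carrier, rose in all 5 comparisons by 0.72 to 1.74. Slc25a23, a related carrier, fell in all 5 by 0.55 to 1.47, from 14.4 ± 0.0774 to 5.18 ± 0.320 CPM with PGE2 at day 1.

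Of 13 sugar carriers, 5 rose and 2 fell with AA at day 1, 7 rose and 1 fell at day 3, and of 12 tested at day 6, 5 rose and 1 fell. PGE2 gave 6 rises and 4 falls at day 1 and 8 rises and 1 fall at day 3. Slc2a2, the basolateral glucose and fructose transporter GLUT2, stood at 35.5, 31.2 and 34.3 CPM in vehicle, 69.2, 64.2 and 53.8 CPM with AA and 60.5, 66.7 and 77.8 CPM with PGE2 at day 3. Both treatments were apart from vehicle and overlapped each other (0.89 ± 0.10 and 1.02 ± 0.10; AA minus PGE2 -0.14 ± 0.09, adjusted p = 0.277). At day 6 AA gave 36.7, 24.9, 37.1 and 29.2 CPM against 15.5, 14.2, 23.1 and 19.3 CPM (0.83 ± 0.16). Slc45a3, a member of the sucrose transporter family, went from 3.93, 3.92 and 5.70 CPM to 16.0, 18.5 and 18.8 CPM with AA and 37.1, 38.1 and 38.5 CPM with PGE2 at day 1 (1.98 ± 0.12 and 3.07 ± 0.11). By day 6 it was near 1 CPM in both groups (0.38 ± 0.22, 0.206). Slc37a4, the glucose-6-phosphate transporter of the endoplasmic reticulum, fell with PGE2 from 51.9 ± 3.18 to 24.9 ± 1.71 CPM at day 1 and from 60.5 ± 2.87 to 39.3 ± 1.44 CPM at day 3.

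Among the 6 carriers left out by name, Slc5a1, the sodium-glucose cotransporter, stood at 189 ± 10.8 CPM in vehicle, 275 ± 34.1 CPM with AA and 236 ± 19.6 CPM with PGE2 at day 3. Slc2a5, the fructose transporter, stood at 40.9 ± 6.26, 59.1 ± 9.48 and 17.5 ± 1.70 CPM in that order, and Slc2a1 at 131 ± 13, 189 ± 10.8 and 156 ± 8.66 CPM. Slc16a3 stood at 80.3 ± 16.8, 144 ± 9.37 and 33.5 ± 10.5 CPM, Slc7a11 at 109 ± 2.19, 182 ± 8.59 and 138 ± 2.76 CPM and Slc7a2 at 12.3 ± 1.39, 2.65 ± 0.447 and 0.716 ± 0.164 CPM.

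Of 12 carriers of organic ions and vesicular cargo, AA gave 5 rises and 3 falls at day 1, 7 rises and 1 fall at day 3 and 4 rises and 2 falls at day 6. PGE2 gave 6 rises and 4 falls at day 1 and 8 rises and 1 fall at day 3. Slc17a9, the vesicular nucleotide transporter that loads ATP for release, stood at 1.29, 1.08 and 0.859 CPM in vehicle, 6.56, 5.72 and 4.96 CPM with AA and 11.1, 9.07 and 12.9 CPM with PGE2 at day 1. It met the level rule through treated libraries alone, so its distance from vehicle (2.40 ± 0.22, 5.29-fold, and 3.35 ± 0.20, 10.2-fold) was built into its choice. The day 3 means were 1.91 ± 0.602 CPM in vehicle and 14.8 ± 0.408 CPM with PGE2. At day 6 it was 1.31 ± 0.289 CPM in vehicle and 1.48 ± 0.0815 CPM with AA (0.18 ± 0.20, adjusted p = 0.514). Slc22a23, whose substrate is not settled, rose in all 5 comparisons, by 1.07 ± 0.06 and 1.02 ± 0.06 with PGE2. Slc17a4, an organic anion transporter of the brush border, fell with AA at days 1 and 3 (-0.81 ± 0.10 and -0.49 ± 0.09) and rose at day 6, from 41.6 ± 4.72 to 60.8 ± 4.90 CPM (0.55 ± 0.08). Slc22a5, the carnitine importer, rose with PGE2 at day 3 from 19.4 ± 0.744 to 33.9 ± 1.05 CPM (0.81 ± 0.07).

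The smaller classes held 9 carriers each. Of those of vitamins, 4 rose and 4 fell with AA at day 1, 5 rose and 0 fell at day 3 and 2 rose and 3 fell at day 6. PGE2 gave 5 rises and 3 falls at day 1 and 6 rises and 2 falls at day 3. Slc23a2, a vitamin C importer, rose in all 5 comparisons, from 45.9 ± 4.35 to 74.8 ± 5.32 CPM with AA at day 6 (0.70 ± 0.08). Slc5a6, which imports biotin and pantothenate, rose at days 1 and 3 with both treatments by 0.40 to 0.62 and stood at 21.0 ± 1.56 and 21.1 ± 1.66 CPM at day 6. Slc19a1, the reduced folate carrier, fell with PGE2 by 0.41 ± 0.05 and 0.48 ± 0.06.

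Of the carriers of nucleosides and nucleotide sugars, 1 rose and 4 fell with AA at day 1, 3 rose and 3 fell at day 3 and 2 rose and 3 fell at day 6. PGE2 gave 1 rise and 2 falls at day 1 and 3 rises and 3 falls at day 3. Slc29a1, an equilibrative nucleoside transporter, fell in all 5 comparisons by 0.25 to 0.56. Slc28a3, a concentrative nucleoside transporter, rose with PGE2 from 3.45 ± 1.44 to 9.98 ± 1.25 CPM at day 1 (1.55 ± 0.19). Slc29a2, another equilibrative transporter, fell with PGE2 at day 3 (-0.61 ± 0.10) and did not pass the test at day 1 (adjusted p = 0.985). Slc35a3, a UDP-N-acetylglucosamine transporter of the Golgi, fell with PGE2 from 204 ± 5.42 to 120 ± 3.65 CPM at day 1 (-0.77 ± 0.04) and by 0.15 ± 0.04 at day 3.

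The time course was tested as a difference of responses. The response to PGE2 was higher at day 3 than at day 1 for 72 carriers and lower for 16 of 185, 47.6% in all. Of the 177 that met the level rule outside the compared libraries, 69 were higher and 16 lower. Of genes at the same level 29.8% were called, 16.1% higher and 13.8% lower. For AA the counts were 46 and 11, 30.8% beside 22.1% (13.1% higher and 8.95% lower). With library totals in place of TMM scaling they came to 31 and 16, and with a stricter filter on low counts to 38 and 16. Libraries of day 6 are in a table of their own, so time and other differences between the sets of libraries cannot be told apart. From day 3 to day 6 the response to AA was higher for 17 and lower for 37, 29.2% beside 24.0% (10.2% higher and 13.8% lower). With library totals the counts were 22 and 28, and without vehicle replicate 2 of day 3, 10 were higher. Leaving out that library took the higher responses among all genes tested from 1362 to 938. In all, 10 carriers fell with PGE2 at day 1 and rose at day 3: Slc25a12, Slc25a20, Slc25a36, Slc26a3, Slc34a2, Slc39a9, Slc43a2, Slc47a1, Slc5a11 and Slc6a19. They were 15.4% of the 65 that fell at day 1, beside 5.12% of all genes at the same level that fell. With AA, 6 carriers turned in this way: Slc25a11, Slc25a12, Slc25a15, Slc25a51, Slc26a3 and Slc34a2 (11.1% of 54, beside 4.90%). Of these, Slc25a15 alone kept both calls whichever library was left out. With library totals the day 3 calls of Slc25a11, Slc25a12, Slc25a51 and Slc34a2 were lost (adjusted p of 0.106 to 0.403). For PGE2, leaving out 1 library ended some of these calls. For Slc43a2 at day 1 it was vehicle replicate 2 (-0.17, adjusted p = 0.127) or PGE2 replicate 1 (-0.26, 0.0593). For Slc47a1 at day 1 it was PGE2 replicate 3 (-0.55, 0.0682), and for Slc25a12 at day 3 vehicle replicate 1 (0.15, 0.0891).

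The largest of the PGE2 turns was in Slc47a1, which exports organic cations in exchange for protons. It stood at 4.50, 4.15 and 4.69 CPM in vehicle and 3.05, 3.02 and 1.76 CPM with PGE2 at day 1. The day 3 values were 1.80, 1.33 and 3.28 CPM in vehicle and 6.24, 7.59 and 8.60 CPM with PGE2. The groups were apart on both days, with a difference of responses of 2.61 ± 0.33 (adjusted p = 4.5e-07). Slc47a1 reached 5 CPM in no vehicle library, so the choice of carriers bears on its rise with PGE2 at day 3. Slc34a2, the brush border phosphate importer, turned likewise: 9.2 ± 0.806 CPM in vehicle and 6.63 ± 0.891 CPM with PGE2 at day 1, and 5.62 ± 0.510 and 13.7 ± 1.45 CPM at day 3 (-0.48 ± 0.13 and 1.29 ± 0.12). Enterocyte markers divided in the same comparison: of 8, 5 rose and 3 fell with PGE2 at day 1 and 6 rose and 2 fell at day 3, while with AA 7 rose at day 1, 8 at day 3 and 7 at day 6, and none fell. The part of enterocyte number in these turns was not tested.

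**Figure D5:**
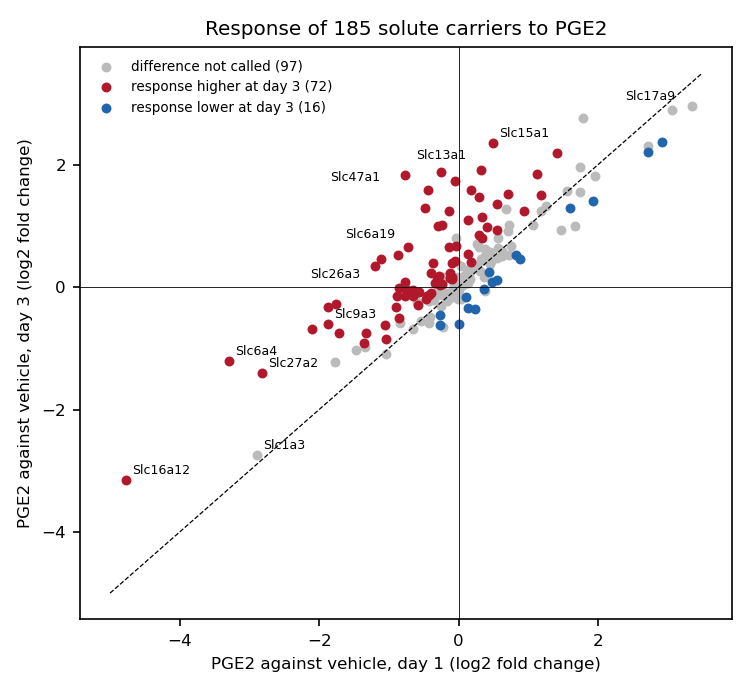
Log2 fold change of each of the 185 carriers with PGE2 at day 1 (horizontal) and day 3 (vertical), each against vehicle of its own day, with the dashed line at equality; colours mark the 72 carriers whose response was higher and the 16 whose response was lower at day 3. Slc16a12 and Slc6a4 are lower than vehicle on both days but less so at day 3.

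Of the 80 carriers that rose with AA at day 3, 40 (50.0%) also rose at day 6, which is 69.0% of the 58 that rose there; for all genes at the same level the shares were 46.0% and 66.0%. These 2 comparisons share no library. Carriers that fell on both days numbered 14, 46.7% of 30 and 38.9% of 36, beside 37.9% and 46.6% for all genes at the same level. Calls in opposite directions were made for 9 carriers. Those that rose at day 3 and fell at day 6 were Slc15a1, Slc25a22, Slc34a2, Slc35a4, Slc3a2 and Slc47a1 (7.50% of 80, beside 2.27% for all genes at the same level), and for each of them at least 1 of both calls was lost when some 1 library was left out. Those that fell and then rose were Slc12a8, Slc17a4 and Slc35a3 (10% of 30, beside 2.84%), of which Slc35a3 lost its rise without AA replicate 1 (0.35, adjusted p = 0.0537) or 3 (0.34, 0.0649) of day 6. Vehicle itself changed between days 1 and 3 for 86 carriers, 42 higher and 44 lower (46.5%), or 52 and 30 with library totals. Of genes at the same level 47.2% changed, 20.3% higher and 26.9% lower. Among the carriers that rose were Slc30a10 (2.82 ± 0.25), Slc40a1 (1.06 ± 0.12) and Slc11a2 (0.84 ± 0.15).

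Set directly against each other, AA was above PGE2 for 45 carriers and below for 43 at day 1 (47.6%), or 57 and 30 with library totals. Genes at the same level gave 34.2%, 14.2% above and 20.1% below. At day 3 it was above for 42 and below for 69 (60.0%), where genes at the same level gave 45.5%, 23.2% above and 22.3% below. At that day carriers of lipids, bile acids and choline (1 above and 8 below of 12), sugars (1 and 8 of 13), organic ions (1 and 8 of 12) and ions (2 and 11 of 25) were called lower with AA more often than higher. Metal carriers (9 and 5 of 25) and mitochondrial carriers (11 and 6 of 37) were called higher more often. These are counts, with no test between classes. At day 3, 2.16% of the 185 carriers rose with AA and fell with PGE2, beside 0.726% of genes at the same level. These opposite calls against vehicle were made for Slc16a1, Slc25a11, Slc25a15 and Slc9a3. That of Slc25a11 with AA (0.17 ± 0.06, adjusted p = 0.0247) was lost without vehicle replicate 2 (0.10, 0.197) or AA replicate 3 (0.15, 0.0795) and with library totals (0.10, 0.207).

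Partners and other transporters outside the symbol pattern moved as well. Of 32 tested, chosen with earlier results known, 12 rose and 7 fell with AA at day 1, 21 rose and 5 fell at day 3 and 11 rose and 2 fell at day 6. PGE2 gave 10 rises and 13 falls at day 1 and 20 rises and 6 falls at day 3. Among all genes at the level rule, 21.7% rose and 27.7% fell with AA at day 1, 25.7% and 22.4% at day 3, 18% and 18.4% at day 6, and 29.3% and 35.1% with PGE2 at day 1, 32.1% and 34.7% at day 3. Slco2a1, the prostaglandin transporter, rose with PGE2 from 1.63 ± 0.116 to 10.7 ± 0.180 CPM at day 1 and from 2.62 ± 0.355 to 22.7 ± 0.905 CPM at day 3 (2.70 ± 0.17 and 3.10 ± 0.14). Cftr, the apical chloride channel that works with Slc12a2 in secretion, fell with AA at day 3 from 230 ± 20.1 to 185 ± 9.75 CPM (-0.31 ± 0.05) and differed from vehicle by 0.06 ± 0.05 with PGE2 (adjusted p = 0.305).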

How the data were processed

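Gene-level read counts of 26 libraries were used as deposited by the authors, in 1 table for days 1 and 3 and 1 for day 6. Libraries were made with a directional kit per the labels' protocols; the submitters' processing notes name cutadapt, STAR, DESeq2 and limma 3.46 and the build GRCh38.p6, a human name, although the gene IDs are of mouse. How reads were assigned to genes, and with which annotation and strand setting, no source used here tells. Symbols were found for 55144 of 55385 genes (99.6%).

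Tests on the counts used edgeR 4.0.16 (R 4.3.3; filterByExpr, TMM scaling, robust quasi-likelihood F test, Benjamini-Hochberg adjustment over all genes tested, threshold 0.05). Days 1 and 3 were fitted together (18 libraries, 14850 genes), day 6 alone (8 libraries, 14663 genes), and all 26 libraries jointly (15504 genes) for the AA response of day 6 minus day 3. Each SE is the log2 fold change over the square root of F. CPM in the results are TMM-scaled within each table, so levels were not compared across tables, and they are not corrected for gene length. The family, its substrate classes and the marker lists were chosen with earlier results of these data known. The fixed rule for named carriers took up to 5 rises and 5 falls of each treatment by size, among called carriers whose mean log2 CPM reached 2 and whose libraries did not overlap vehicle, up to 3 each way of the other comparisons, and the most counted carrier of each class. The script was tested on simulated counts. Alternatives were DESeq2 1.42.0, other scalings, filters, fits, membership rules, the replicate number as a block, and each library left out.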

Additional observations from a re-analysis of the deposited data

Results flagged for a closer look

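In 6 of 84 tests of day 6 groups, 1 of 4 libraries stood apart from the others by Dixon's test, where chance gives about 1 in 20. In vehicle, replicate 1 had 0.107 CPM of Slc12a4 where the others had 0, a flag that any value above 0 would have raised. Replicate 2 had 15.8 CPM of Slc16a12 (others 14.3 to 14.5) and 775 CPM of Slc25a5 (818 to 827). Replicate 4 had 102 CPM of Slc35a3 (142 to 149) and 29.3 CPM of Slc6a9 (20.6 to 21.1). With AA, replicate 4 had 30.5 CPM of Slc27a2 (39.6 to 41.4).

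The response to AA differed between days 1 and 3 by the interaction term, on the log2 scale, for Slc11a2 (1.06), Slc26a6 (1.00) and Slc47a1 (0.99) upward and for Slc12a4 (-1.32), Slc17a9 (-1.16) and Slc9a4 (-0.95) downward. The call of Slc17a9 was lost without vehicle replicate 3 of day 3 (-0.94, adjusted p = 0.0644), and that of Slc47a1 without any 1 of several libraries, for example vehicle replicate 2 of day 3 (0.77, 0.096). The response to PGE2 differed upward for Slc47a1 (2.61), Slc13a1 (2.14) and Slc6a4 (2.08) and downward for Slc29a2 (-0.61), Slc25a25 (-0.59) and Slc25a48 (-0.56). Slc12a4, Slc13a1, Slc17a9 and Slc47a1 reached 5 CPM in no vehicle library, so the choice of carriers bears on their distance from vehicle.

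From day 3 to day 6 the response to AA differed upward for Slc16a12 (1.33), Slc17a4 (1.02) and Slc12a8 (0.99) and downward for Slc5a12 (-1.84), Slc47a1 (-1.83) and Slc15a1 (-1.46). Slc12a8, a cation-chloride cotransporter relative reported to carry nicotinamide mononucleotide, was named by this difference alone.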

How the results depend on the processing

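Of 15802 alternative values for carriers named by the text, 15034 stayed on the same side of the threshold, 538 lost a call and 230 gained one. In 0 did the sign change where the main or the alternative fit made a call. Changes of sign between uncalled values were not counted. The number of carriers lower with AA at day 6 went from 36 to 23 without AA replicate 4 of that day. Among all genes tested it went from 2270 to 1536. Carriers with a higher AA response at day 6 than at day 3 went from 17 to 10 without vehicle replicate 2 of day 3. For all genes tested that count went from 1362 to 938. The cause was not tested. With each library left out in turn, rises with AA ran from 48 to 53, 73 to 80 and 47 to 62 at days 1, 3 and 6, falls from 49 to 52, 29 to 33 and 23 to 35, rises with PGE2 from 61 to 64 and 84 to 91 and falls from 61 to 64 and 38 to 45. For AA responses of day 6 minus day 3, higher ran from 10 to 21 and lower from 29 to 38.

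Same-numbered libraries did not deviate together (correlations of -0.083 to 0.156 at days 1 and 3, over 0.1 in 3 of 45 pairs, and -0.067 to 0.136 at day 6), so the numbers were not taken as pairs. With the replicate number as a block, AA gave 53 rises and 54 falls, 81 and 32, and 61 and 34 at days 1, 3 and 6, and PGE2 65 and 66, and 90 and 45. AA against PGE2 gave 44 and 45 at day 1 and 44 and 71 at day 3, vehicle over time 42 and 44, and the differences of responses 46 and 14, 75 and 18, and 20 and 39. The fit of the compared groups alone could not differ from the main one at day 6. Depth limits what could be detected for carriers near 1 CPM, which rest on few reads.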
